A study of Mus musculus with 10 samples.

Results

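Fatty acid oxidation in mouse visceral fat was described here through 31 named genes of the mitochondrial and peroxisomal pathways. The members were fixed by gene symbol, and each matched exactly 1 row among the 16667 genes with normalized counts and 1 among the 29242 genes with TPM, the length-corrected share of all transcripts. Of the 31 members, 21 act in or at mitochondria, 8 in peroxisomes, and 2 were set apart as regulators, Ppara and Acacb. The tumour group consisted of 5 wild-type C57BL/6 mice, aged 10 weeks, with an orthotopic KPC pancreatic tumour, which is a mouse pancreatic cancer placed in the pancreas. The comparison group was 5 wild-type C57BL/6 mice of that age after sham surgery. The labels name no engineered allele and no drug for either group, and they do not give the tumour line, the time since inoculation or the sex. The tissue was visceral fat, with titles ending in gwat, and the series title concerns the wasting of fat tissue during cancer.

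Mitochondrial beta-oxidation shortens fatty acids by repeated cycles that yield acetyl-CoA and reduced electron carriers. Long chains must first be coupled to carnitine to cross the inner membrane, a step held back by malonyl-CoA. Peroxisomes shorten very long and branched chains, which are then finished in mitochondria. White fat mainly stores and releases fatty acids, while brown fat and muscle burn them at high rates.

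Hadha and Hadhb encode the alpha and beta subunits of the mitochondrial trifunctional protein, which carries out the last steps of each cycle on long chains. Their genes lie head to head on chromosome 5, and RefSeq sequences of GRCm38.p6 are shown because the start regions of this pair of partner genes are largely the same DNA read in opposite directions. Each window has 300 bases, from 250 before to 50 after the start, at chr5:30154931-30155230 on the minus strand for Hadha and chr5:30155003-30155302 on the plus strand for Hadhb. Capitals mark the 228 bases that both windows share, and the RefSeq start sites are 273 bases apart. GENCODE places the outermost start of Hadha elsewhere, at 30155162 within the shared stretch, and that of Hadhb at 30155248.
Hadha: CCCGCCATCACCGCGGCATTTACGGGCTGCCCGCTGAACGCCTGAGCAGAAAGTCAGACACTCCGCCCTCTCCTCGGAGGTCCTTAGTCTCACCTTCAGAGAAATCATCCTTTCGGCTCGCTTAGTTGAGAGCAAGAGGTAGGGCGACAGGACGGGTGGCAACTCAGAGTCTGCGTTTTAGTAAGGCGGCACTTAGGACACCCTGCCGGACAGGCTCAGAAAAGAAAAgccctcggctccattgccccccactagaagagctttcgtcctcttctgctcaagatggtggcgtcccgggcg
Hadhb: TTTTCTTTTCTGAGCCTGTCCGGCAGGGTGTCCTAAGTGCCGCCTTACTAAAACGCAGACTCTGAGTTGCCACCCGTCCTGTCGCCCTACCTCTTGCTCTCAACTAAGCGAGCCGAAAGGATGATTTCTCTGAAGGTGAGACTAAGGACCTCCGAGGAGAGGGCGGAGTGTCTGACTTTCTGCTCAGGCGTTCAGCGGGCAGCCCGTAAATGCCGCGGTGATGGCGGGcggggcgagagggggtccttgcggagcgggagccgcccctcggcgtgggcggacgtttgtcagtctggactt
In visceral fat, Hadha stood at 66.5, 116, 126, 109 and 100.3 TPM in KPC mice 1 to 5, against 142, 136, 119, 124 and 109.6 TPM in sham mice 1 to 5. Hadhb stood at 162, 279, 248, 247 and 207 TPM in KPC mice 1 to 5, against 293, 291, 267, 273 and 220.0 TPM in sham mice 1 to 5. Hadhb over Hadha in TPM ran from 1.97 to 2.43 in KPC mice and from 2.01 to 2.25 in sham mice. Whether this ratio is steadier than that of other members was not tested.

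Promoter windows were available for 25 of the 31 members. The nuclear receptor half-site AGGTCA, read on both strands, was found in 5 of these 25, Acacb, Acadm, Acadvl, Cpt1a and Echs1, while 18.1% of the 27025 genes with a window held it. A pair of AGGNCA half-sites in the same direction with any base between them, the direct repeat bound by PPAR receptors, overlaps the first motif and was found in 0 of the 25 windows and in 0.45% of all genes. The NRF1 palindrome, GCGCA and GCGC with any base between them, was found in Abcd3, Etfb, Etfdh and Ppara, and in 5.19% of all genes. These matches describe letters in 300-base windows only.

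No member of the pathway passed the test between tumour-bearing and sham mice, although most lay slightly lower in the tumour group. On the log2(normalized count + 1) scale, 27 of the 31 members had a negative difference, KPC minus sham, and 4 a positive one, with a median of -0.20. Over all 14203 genes tested, 53.1% were negative and the median was -0.02. The lowest differences were those of Abcd2 and Cpt1b, -0.58 ± 0.19 and -0.55 ± 0.37 (± SE), and the highest was that of Eci1, 0.26 ± 0.67. All 31 members passed the filter of a mean of at least 10 normalized counts and were tested with limma, a linear model fitted across all genes. With Benjamini-Hochberg adjustment over all genes, 0 of 31 members were called at an adjusted p under 0.05, where the background was 0.0563% of genes called, 0.0493% higher and 0.00704% lower. The adjusted p of the members ran from 0.255 to 0.944. At an unadjusted p under 0.05, 3 members lay lower, Abcd2, Abcd3 and Acaa2, and 0 higher, beside 5.91% of all genes lower and 7.61% higher. The members share the same 10 mice, so their common direction is not 31 separate observations. The median SE of a member's difference was 0.14, and the SEs ran from 0.079 for Acaa2 to 0.67 for Eci1. In bulk tissue, fewer cells of a type and less RNA per cell cannot be told apart.

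**Figure D1:**
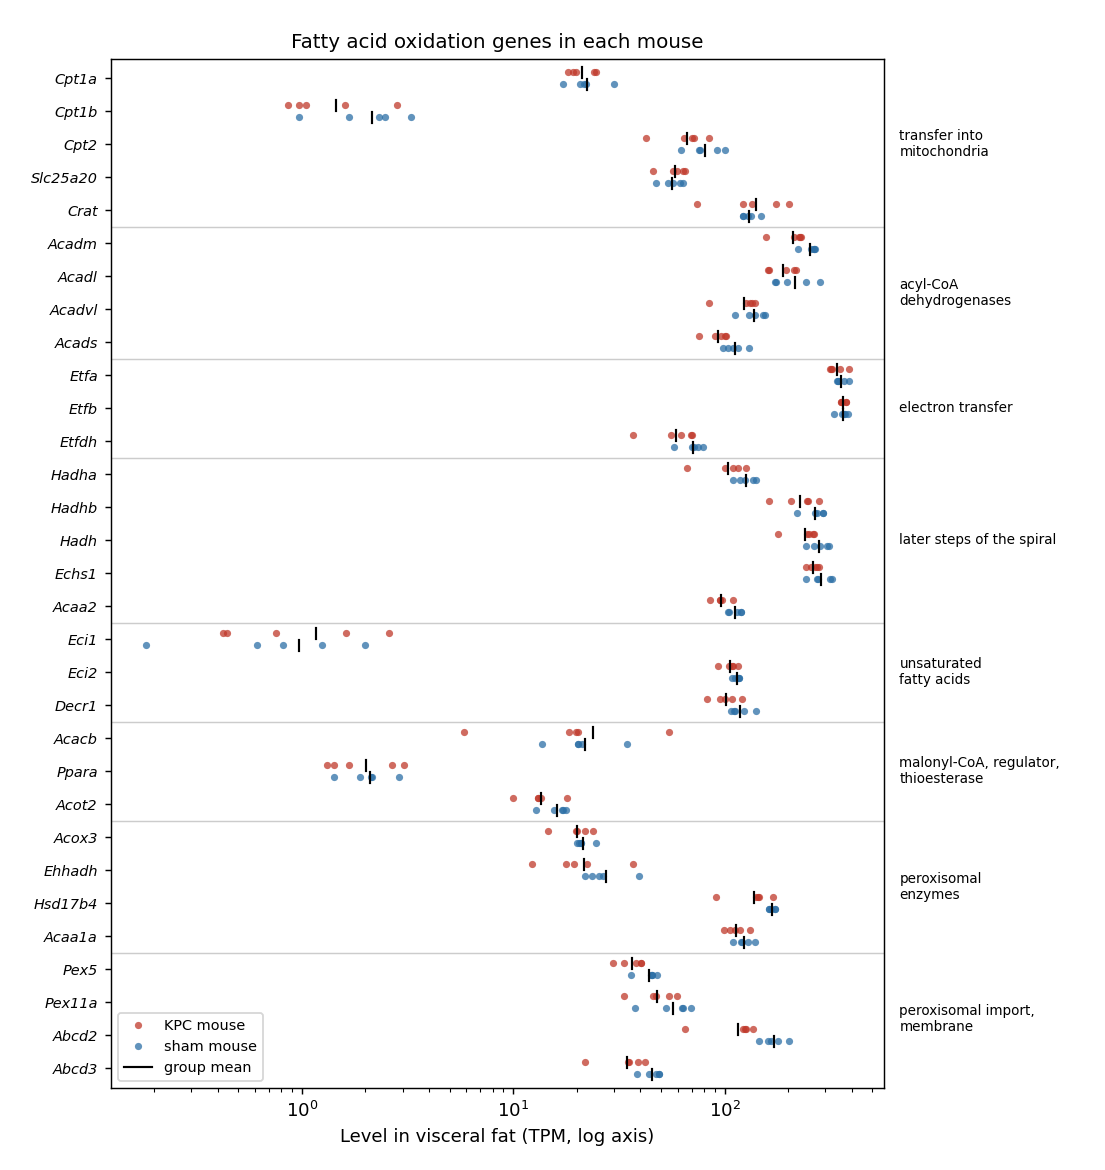
Level of each of the 31 genes in TPM on a log axis, with 1 point per KPC mouse (red, upper row) or sham mouse (blue, lower row) and the group mean as a black bar. The points of both groups overlap for every gene but Abcd2, and Eci1, Cpt1b and Ppara are the genes with means under 3 TPM.

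The libraries differed in ways that bear on all members. Totals of normalized counts ran from 20941242 in KPC mouse 1 to 24449863 in sham mouse 1. KPC mouse 1 had 15.7% of TPM in mitochondrially encoded genes, where the other 4 KPC mice had 26.3% to 32% and sham mice 26.45% to 33.3%. The tissue carried its adipocyte markers at high levels. The 8 markers summed to 31832 to 45156 TPM in KPC mice and 42323 to 53492 TPM in sham mice. Most of each sum was Fabp4 and Car3. The 3 positive differences, of Adipoq, Cidec and Fabp4, were 0.019, 0.055 and 0.015. The 5 negative ones were Lep (-0.61 ± 0.32), Plin1 (-0.47 ± 0.16), Car3 (-0.41 ± 0.37), Lipe (-0.20 ± 0.18) and Pnpla2 (-0.078 ± 0.21). None passed, with limma adjusted p-values of 0.279 or more. For Car3 every KPC mouse lay below every sham mouse, beside 1.28% of all genes tested. Of the 4 pancreatic acinar markers, Prss2, Cpa1 and Ctrb1 were at or near 0 in all 10 libraries. The remaining one, Cela1, stood at 11.5 to 32.2 TPM in KPC mice, highest in KPC mouse 1, and at 12.3 to 22 TPM in sham mice. Macrophage markers moved with the groups: all 8 of 8 had a positive difference, and they summed to 4745, 1477, 1220, 1679 and 1114 TPM in KPC mice 1 to 5, against 663, 858, 980, 728 and 1105 TPM in sham mice 1 to 5. None of them stood at 0 throughout. Red cell markers, 5 of 5 with a positive difference, summed to 8547 to 40711 TPM in KPC mice, the highest in KPC mouse 1, and to 4748 to 12868 TPM in sham mice. Endothelial markers summed to 125 to 299 TPM in KPC mice and 187 to 243 TPM in sham mice, and mesothelial markers to 68.9 to 139.5 TPM in KPC mice and 68.2 to 164 TPM in sham mice. The 3 liver markers summed to 1525 to 2408 TPM in KPC mice and 947 to 2417 TPM in sham mice, nearly all of it Cyp2e1. Alb, the albumin gene, lay the other way at 5.12 to 11.9 TPM in KPC mice and 12.5 to 19.9 TPM in sham mice, without overlap, with a difference of -0.93 ± 0.22 and a limma adjusted p of 0.127. The part of these other cells in the members' differences was not tested.

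Genes that bring fatty acids into mitochondria gave no common direction. Cpt1a, the liver-type carnitine palmitoyltransferase at the outer membrane and the step blocked by malonyl-CoA, had 24.6, 18.1, 19.1, 24.1 and 19.8 TPM in KPC mice 1 to 5, against 17.3, 20.7, 21.7, 22.1 and 30.1 TPM in sham mice 1 to 5. The groups overlapped, and the highest mouse was sham mouse 5. Its log2 difference was -0.037 ± 0.13 (95% interval -0.32 to 0.24; limma adjusted p = 0.922), and 0.062 without sham mouse 5. Cpt1b, the form of muscle and brown fat, was low, with 0.965, 1.6, 0.863, 2.82 and 1.05 TPM in KPC mice 1 to 5, against 1.67, 2.31, 0.973, 2.49 and 3.27 TPM in sham mice 1 to 5. KPC mouse 4 and sham mice 2, 4 and 5 lay above 2 TPM, and the difference was -0.55 ± 0.37 with an interval of -1.36 to 0.26 and a limma adjusted p of 0.534. Skeletal muscle markers, 8 of 8 negative, summed to 104 to 315 TPM in KPC mice and 121 to 4614 TPM in sham mice, with the highest sum in sham mouse 5, which also had the highest Cpt1b. Ucp1, the uncoupling protein of brown fat, had 6, 3.89, 0.624, 13.4 and 2.97 TPM in KPC mice 1 to 5, against 0.103, 29.3, 2.36, 5.16 and 0.0341 TPM in sham mice 1 to 5. The 6 brown or beige markers summed to 152 to 268 TPM in KPC mice and 110 to 387 TPM in sham mice. Most of each sum was Cox8b, at 141 to 253 TPM in KPC mice and 107 to 329 TPM in sham mice. The part of muscle and brown fat RNA in the Cpt1b values was not tested. The annotation places 2744 exonic bases of Cpt1b inside a second gene on that strand, Gm44502, so its reads may be divided. Gm44502 is not among the genes with TPM, so such a division cannot be seen.

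Cpt2, the inner-membrane enzyme that releases acyl-CoA from carnitine, had 42.3, 71.5, 84.8, 69.8 and 64.4 TPM in KPC mice 1 to 5, against 101, 91.7, 75.3, 76.2 and 62 TPM in sham mice 1 to 5. KPC mouse 1 was lowest and sham mouse 1 highest, and the difference was -0.27 ± 0.20 (limma adjusted p = 0.578). Slc25a20, the carrier that exchanges acylcarnitine for carnitine, had 65.3, 63.3, 59.8, 57.2 and 46.1 TPM in KPC mice 1 to 5, against 61.4, 63.4, 47.4, 54.3 and 56.9 TPM in sham mice 1 to 5. Its groups covered nearly the same range and differed by 0.072 ± 0.15, or by -0.018 on TPM rescaled without mitochondrially encoded genes. Crat, carnitine acetyltransferase, which handles short chains, had 74, 135, 201, 175 and 123 TPM in KPC mice 1 to 5, against 129, 148, 134, 122 and 123 TPM in sham mice 1 to 5. The KPC mice were spread more widely than the sham mice, on both sides of them, with a mean of 142 ± 49.1 TPM in KPC mice and 131 ± 10.8 TPM in sham mice (SD, n = 5 each). Its difference was 0.068 ± 0.22, or -0.092 without KPC mouse 3. The limma adjusted p was 0.857 for Slc25a20 and 0.916 for Crat.

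The 4 acyl-CoA dehydrogenases, which open each cycle on chains of different length, all had small negative differences, from -0.26 to -0.13, though that of Acadl was 0.022 without sham mouse 1. Acadm, the medium-chain enzyme, had 158, 226, 212, 229 and 226 TPM in KPC mice 1 to 5, against 267, 266, 264, 256 and 222 TPM in sham mice 1 to 5. KPC mice 2 to 5 lay close together, KPC mouse 1 lay far below them, and sham mouse 5 fell within the KPC range. The means were 210.1 ± 30.0 TPM in KPC mice and 255 ± 18.8 TPM in sham mice. KPC mice 2 to 5 alone averaged 223 ± 7.49 TPM. The difference was -0.26 ± 0.12 (95% interval -0.52 to 0.014; limma adjusted p = 0.392). Acadl, the long-chain enzyme, had 161, 212, 218, 195 and 163 TPM in KPC mice 1 to 5, against 283, 243, 175, 198 and 174 TPM in sham mice 1 to 5. The highest mice were sham mice 1 and 2, and the other sham mice lay within the KPC range, and the difference was -0.13 ± 0.19 (limma adjusted p = 0.801). Acadvl, the very-long-chain enzyme of the inner membrane, had 84, 135, 132, 139.6 and 126 TPM in KPC mice 1 to 5, against 131, 156, 152, 139 and 112 TPM in sham mice 1 to 5. Apart from KPC mouse 1 the KPC mice lay within the sham range, and the difference was -0.14 ± 0.14 (limma adjusted p = 0.694). The short-chain enzyme Acads averaged 92.8 ± 10.7 TPM in KPC mice and 112 ± 12.5 TPM in sham mice, a difference of -0.24 ± 0.13 with a limma adjusted p of 0.43. Exons of 10 members share bases with another gene in the annotation. Exons of Acadvl share 1151 bases with Dvl2 on the opposite strand, and without a stated strand setting their reads cannot be told apart.

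Electron transfer flavoprotein takes electrons from these dehydrogenases to the respiratory chain, and its subunit genes were the most abundant members. Etfb, the beta subunit, had 356, 376, 360.0, 355 and 374 TPM in KPC mice 1 to 5, against 369, 367, 383, 358 and 330.5 TPM in sham mice 1 to 5. All 10 mice lay within a narrow band, and the difference was 0.045 ± 0.09, or -0.045 on TPM rescaled without mitochondrially encoded genes (95% interval -0.15 to 0.24; limma adjusted p = 0.856). Etfa, the alpha subunit, averaged 339 ± 30.6 TPM in KPC mice and 357 ± 19.98 TPM in sham mice, with a difference of -0.041 ± 0.10, or 0.011 after quantile normalization (limma adjusted p = 0.879). Etfdh, the oxidoreductase that passes the electrons to ubiquinone, averaged 58.7 ± 13.5 TPM in KPC mice and 70.8 ± 8.02 TPM in sham mice. Its difference was -0.26 ± 0.18 (limma adjusted p = 0.532), and KPC mouse 1 was the lowest of the 10 at 36.9 TPM. Exons of Etfb share 617 of their 1164 bases with Gm45233 on the same strand, so reads of Etfb may be divided. Gm45233 is not among the genes with TPM, so such a division cannot be seen.

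All 5 members of the hydratase, dehydrogenase and thiolase steps had negative differences, though that of Echs1 was 0.0079 without sham mouse 1. Hadha and Hadhb, whose levels stand beside their start regions above, differed by -0.28 ± 0.17 and -0.22 ± 0.16. KPC mouse 1 was the lowest of the 10 mice for both genes, and the other KPC mice overlapped the sham mice. The limma adjusted p was 0.5 for Hadha and 0.569 for Hadhb. Acaa2, the mitochondrial thiolase that splits off acetyl-CoA from medium chains, had 95, 95, 85.6, 109.6 and 97.8 TPM in KPC mice 1 to 5, against 103, 119.6, 105, 115 and 119.6 TPM in sham mice 1 to 5. In TPM, KPC mouse 4 lay within the sham range and the other KPC mice lay below it. In normalized counts, KPC mice 1 and 2 also fell within the sham range. The difference of -0.19 ± 0.079 had the smallest SE of the 31 members (95% interval -0.36 to -0.014), with an unadjusted p of 0.0364 and a limma adjusted p of 0.339. Without KPC mouse 1 the Acaa2 difference was -0.20. Hadh, the hydroxyacyl-CoA dehydrogenase of medium and short chains, averaged 240.2 ± 35.2 TPM in KPC mice and 281 ± 27.8 TPM in sham mice, with a limma adjusted p of 0.531. Echs1, the short-chain enoyl-CoA hydratase, averaged 263 ± 13.8 TPM in KPC mice and 286 ± 32.8 TPM in sham mice, with a limma adjusted p of 0.817.

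Unsaturated fatty acids need extra isomerase and reductase steps. Decr1, the dienoyl-CoA reductase, averaged 101 ± 14.3 TPM in KPC mice and 119 ± 13.3 TPM in sham mice, and Eci2, an enoyl-CoA isomerase, averaged 106 ± 8.59 TPM in KPC mice and 114 ± 3.6 TPM in sham mice. Their differences were -0.20 ± 0.14 and -0.072 ± 0.083, with limma adjusted p-values of 0.554 and 0.73. Eci1, the other mitochondrial isomerase, was the lowest member, with 0.751, 2.6, 1.61, 0.423 and 0.442 TPM in KPC mice 1 to 5, against 0.813, 1.99, 0.615, 0.183 and 1.24 TPM in sham mice 1 to 5. The values were scattered over more than 10-fold among mice of both groups, and the interval of its difference, -1.22 to 1.73, covers large changes either way (limma adjusted p = 0.891).

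Acacb and Ppara, which act on the pathway from outside, varied widely between mice. Acacb encodes acetyl-CoA carboxylase 2, which makes the malonyl-CoA that blocks Cpt1. It had 5.88, 20.2, 54.8, 19.9 and 18.5 TPM in KPC mice 1 to 5, against 34.7, 21.1, 20.4, 20.2 and 13.6 TPM in sham mice 1 to 5. The lowest and the highest of the 10 mice were both KPC mice, 1 and 3, and the difference was -0.12 ± 0.48, or 0.28 ± 0.38 without KPC mouse 1. Ppara encodes the fatty acid-sensing nuclear receptor that drives oxidation genes in liver. It had 1.32, 1.42, 3.04, 2.66 and 1.66 TPM in KPC mice 1 to 5, against 2.9, 2.13, 2.14, 1.89 and 1.41 TPM in sham mice 1 to 5. The ranges of both groups were nearly the same, and the difference was -0.063 ± 0.29 with an interval of -0.69 to 0.56, or 0.052 without KPC mouse 1 and 0.10 without sham mouse 1. Limma adjusted p-values were 0.934 for Acacb and 0.944 for Ppara. Acot2, a mitochondrial thioesterase that frees fatty acids from CoA, had 10.01, 13.1, 13.6, 17.9 and 13.1 TPM in KPC mice 1 to 5, against 12.9, 17.1, 17, 15.7 and 17.8 TPM in sham mice 1 to 5. KPC mouse 4 was the highest of all mice in TPM, but sham mouse 2 was the highest in normalized counts. KPC mouse 1 was the lowest in both, and the difference was -0.23 ± 0.12 (limma adjusted p = 0.426). Acot2 has a near copy, Acot1, so the division of reads between them is uncertain. Acot1 had 0.929, 0.495, 0.674, 1.45 and 1.08 TPM in KPC mice 1 to 5, against 0.28, 0.435, 0.41, 0.51 and 1.11 TPM in sham mice 1 to 5, a difference of 0.83 ± 0.37 in the other direction (limma adjusted p = 0.363).

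**Figure D2:**
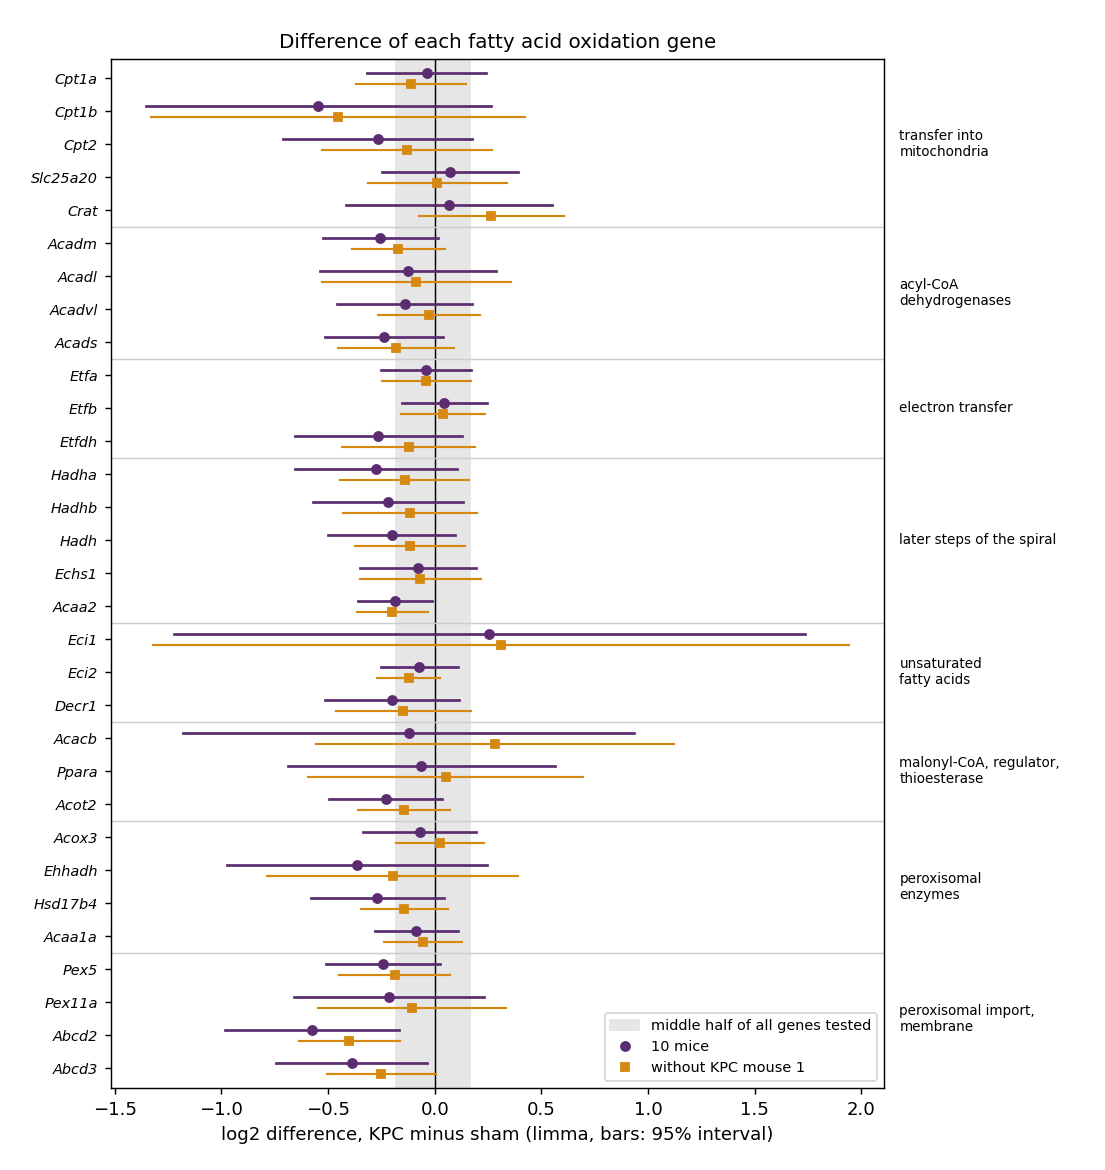
log2 difference, KPC minus sham, of each gene with its 95% interval from limma, over all 10 mice (purple) and without KPC mouse 1 (orange), beside the range between the quartiles of all genes tested (grey band, -0.18 to 0.16). Intervals of 28 genes include 0 over all mice, those of Abcd2, Abcd3 and Acaa2 do not, and no gene passed after adjustment over all genes.

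The 8 peroxisomal members all had negative differences, from -0.58 to -0.07, with a median of -0.26, beside -0.19 for the 21 mitochondrial members. Without KPC mouse 1 the medians were -0.17 and -0.12, and Acox3 was at 0.024. Whether these medians differ was not tested. Summed over the 8 genes, the level was 367, 574, 579.5, 582 and 536 TPM in KPC mice 1 to 5, against 685, 622, 717, 671 and 592 TPM in sham mice 1 to 5. These sums did not overlap between groups, but the separation rested on Abcd2. Without Abcd2 the sum was 302, 452, 453, 446 and 411 TPM in KPC mice 1 to 5, against 505, 476, 514, 505 and 430.3 TPM in sham mice 1 to 5, so KPC mice 2, 3 and 4 lay above sham mouse 5. The median over the 8 genes, relative to the sham mean on the log2 scale, overlapped too: it was -0.71 to -0.029 in KPC mice and -0.26 to 0.23 in sham mice.

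Abcd2, a transporter that brings very-long-chain acyl-CoA into peroxisomes and a relative of the adrenoleukodystrophy gene, had the lowest difference. Abcd2 lies on chromosome 15 of GRCm38 at 91145871 to 91191799, on the minus strand (ENSMUSG00000055782). It had 65.2, 123, 126, 136 and 125 TPM in KPC mice 1 to 5, against 179.8, 146, 202, 167 and 161 TPM in sham mice 1 to 5. Every KPC mouse lay below every sham mouse, with KPC mouse 1 far below the rest. Of the 31 members this held for 1, beside 1.28% of all genes tested. The means were 115 ± 28.4 TPM in KPC mice and 171 ± 21.2 TPM in sham mice (SD, n = 5 each), and without KPC mouse 1 the KPC mean was 128 ± 5.92 TPM. The log2 difference was -0.58 ± 0.19 (95% interval -0.98 to -0.17), or 33.0% lower, with an unadjusted p of 0.00971. It did not pass over all genes (limma adjusted p = 0.255). Without KPC mouse 1 the difference was -0.40 ± 0.11 and the limma adjusted p 0.148.

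Abcd3, the abundant peroxisomal membrane transporter PMP70 that carries branched-chain and dicarboxylic acids, lies on chromosome 3 at 121758774 to 121815302, on the minus strand. It had 21.8, 35.2, 42.2, 38.8 and 34.8 TPM in KPC mice 1 to 5, against 48.9, 44, 47.1, 48.8 and 38.5 TPM in sham mice 1 to 5. KPC mice 3 and 4 lay above sham mouse 5, and the other KPC mice lay below all sham mice. The difference was -0.39 ± 0.16 (95% interval -0.75 to -0.035; limma adjusted p = 0.334), and -0.25 ± 0.12 without KPC mouse 1. Pex5, the receptor that carries enzymes into the peroxisome, had 29.5, 40.1, 38.3, 40.2 and 33.4 TPM in KPC mice 1 to 5, against 45.4, 47.8, 45.4, 44.7 and 36.2 TPM in sham mice 1 to 5. Only sham mouse 5 of the sham mice fell within the KPC range, and the difference was -0.24 ± 0.12 (limma adjusted p = 0.405). Pex11a, which promotes peroxisome division, had 33.5, 54.4, 59.8, 47.2 and 45.7 TPM in KPC mice 1 to 5, against 69, 53.1, 62.8, 63.9 and 37.7 TPM in sham mice 1 to 5. Its groups overlapped widely, and the difference was -0.21 ± 0.20 (limma adjusted p = 0.672).

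Among peroxisomal enzymes, Ehhadh, the L-bifunctional protein that carries out the middle steps, had 12.3, 22.4, 36.7, 19.3 and 17.9 TPM in KPC mice 1 to 5, against 39.2, 25.5, 26.7, 23.7 and 21.9 TPM in sham mice 1 to 5. KPC mouse 3 and sham mouse 1 stood above the other mice of their groups, and the difference was -0.36 ± 0.28 (limma adjusted p = 0.584). Acaa1a, the peroxisomal thiolase, had 99, 106, 112, 132 and 119 TPM in KPC mice 1 to 5, against 121, 119, 139, 129 and 109 TPM in sham mice 1 to 5. The ranges of both groups overlapped over most of their width, the difference was -0.087 ± 0.088 and the limma adjusted p 0.693. Hsd17b4, the D-bifunctional protein, averaged 138 ± 28.6 TPM in KPC mice and 167 ± 5.89 TPM in sham mice. The sham mice lay within 162 to 174 TPM, KPC mouse 1 stood at 91.3 TPM, and KPC mouse 2, at 169 TPM, fell among the sham mice. Its difference was -0.27 ± 0.14 (limma adjusted p = 0.428). Acox3, an oxidase of branched chains, averaged 20.1 ± 3.5 TPM in KPC mice and 21.3 ± 1.81 TPM in sham mice, with a limma adjusted p of 0.828.

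Mouse by mouse, the spread within each group was as wide as the gap between groups. Relative to the sham mean on the log2 scale, the median over the 31 members was -0.55, -0.01, -0.01, -0.18 and -0.29 in KPC mice 1 to 5, against 0.25, 0.09, -0.08, -0.08 and -0.23 in sham mice 1 to 5. KPC mice 2 and 3 lay above sham mice 3, 4 and 5, and KPC mouse 5 lay below the sham mean for 30 members. KPC mouse 1 was the lowest of the 10 for 19 of the 31 members, and sham mouse 1 was the highest for 19. Within the sham group, sham mouse 5 was lowest for 20 members. Without KPC mouse 1, 24 of 31 members had a negative difference, the median was -0.12 and 0 members were called. Without sham mouse 1, 23 of 31 were negative and the median was -0.12. With KPC mouse 1 and sham mouse 5 left out, a choice made after seeing the data, 26 were negative and the median was -0.17. In that setting 0 were called, and Abcd2, Acadm and Pex5 had no overlap between groups. For Acadm and Pex5, sham mouse 5 was the only sham mouse within the KPC range, so leaving it out fixed this outcome. The share of all genes without overlap was not counted in that setting.

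**Figure D3:**
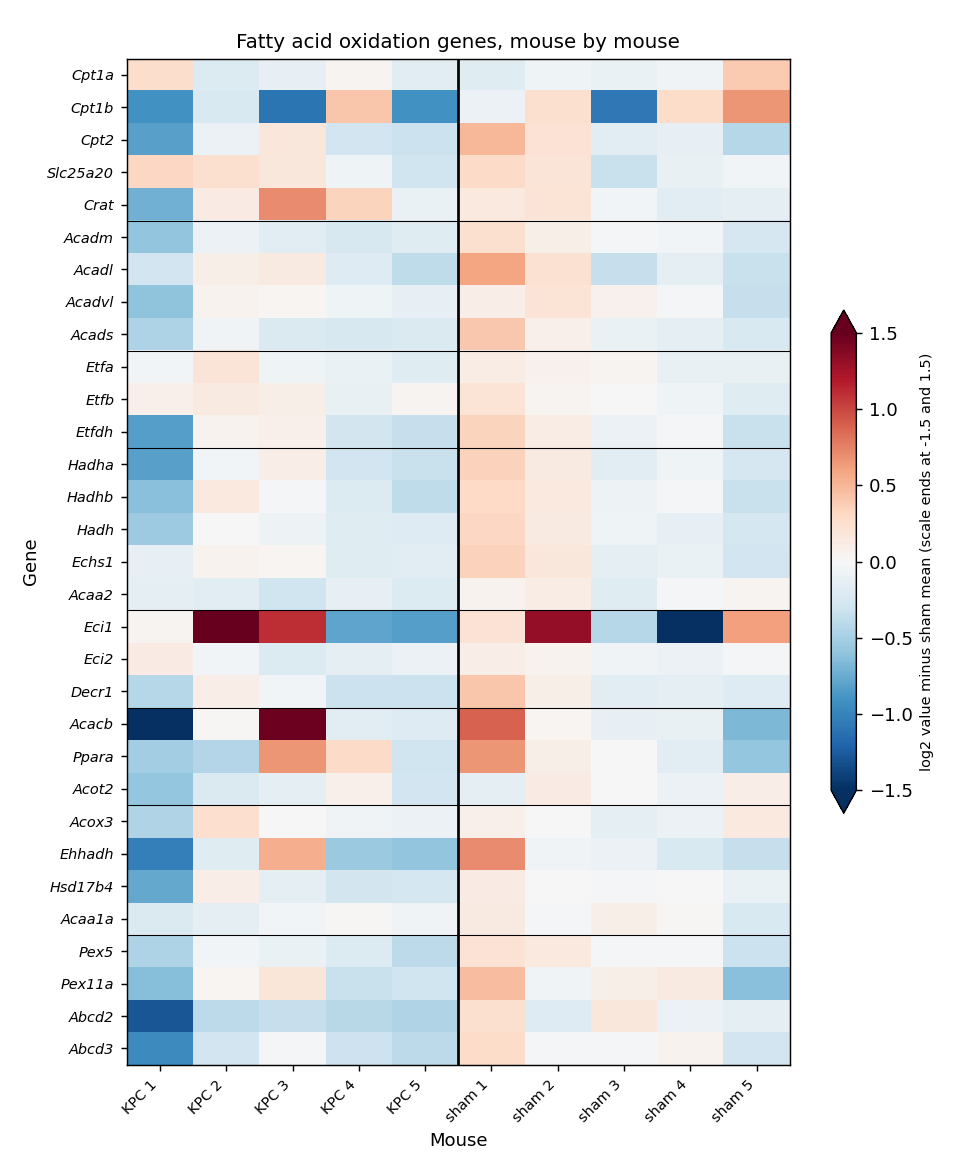
log2(normalized count + 1) of each gene in each mouse minus the sham mean of that gene, blue where lower and red where higher, with KPC mice left of the black line and sham mice right of it. KPC mouse 1 is mostly blue and sham mouse 1 mostly red, with medians of -0.55 and 0.25, while KPC mice 2 and 3 are close to the sham mean.

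Related genes outside the 31 members gave 0 calls as well. Over 8 lists, 120 of 130 genes were tested, 90 had a negative and 30 a positive difference, and the median was -0.13. At an unadjusted limma p under 0.05, 7 of the 120 lay lower and 2 higher, beside 5.91% of all genes lower and 7.61% higher. In normalized counts, every KPC mouse lay below every sham mouse for 3 of the 120, beside 1.28% of all genes. Of 21 genes listed under other mitochondrial oxidation, 15 were negative (median -0.14). The list also holds Eci3 and Nudt19, which encode peroxisomal enzymes, so it is not purely mitochondrial. The 3 genes of this list with the smallest p were Acadsb, Acad9 and Pccb. Acadsb encodes a dehydrogenase of short branched chains, Acad9 also helps assemble respiratory complex I, and Pccb encodes a subunit of propionyl-CoA carboxylase. Acadsb averaged 258 ± 57.3 TPM in KPC mice and 342 ± 33.8 TPM in sham mice, with a difference of -0.40 ± 0.17 and a limma adjusted p of 0.342. Acad9 and Pccb differed by -0.27 ± 0.15 and -0.25 ± 0.14, with limma adjusted p-values of 0.444 and 0.454.

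Among genes listed under other peroxisomal oxidation, which include the lysosomal transporter gene Abcd4, 17 of 21 tested were negative, with a median of -0.11. Cat, catalase, which removes the hydrogen peroxide made in peroxisomes, averaged 455 ± 103 TPM in KPC mice and 555 ± 67.5 TPM in sham mice. Its difference was -0.28 ± 0.18 (limma adjusted p = 0.513). Beside Cat, the genes with the smallest p were Acot6 and Nudt7, a peroxisomal CoA hydrolase, with differences of -0.33 ± 0.17 and -0.37 ± 0.23 and limma adjusted p-values of 0.426 and 0.5. Of the 17 other peroxins, which import proteins and build the organelle, 16 were negative, with a median of -0.19. Pex10, a ubiquitin ligase subunit of the import machinery, differed by -0.35 ± 0.18, with a limma adjusted p of 0.426.

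Control of malonyl-CoA was covered by 11 genes, 9 of them negative, with a median of -0.06. Prkaa2, the alpha 2 catalytic subunit of AMP-activated kinase, which inactivates acetyl-CoA carboxylases, had 1.19, 2.04, 2.72, 2.34 and 2.35 TPM in KPC mice 1 to 5, against 3.35, 3.06, 3.09, 3.11 and 3.51 TPM in sham mice 1 to 5. Every KPC mouse lay below every sham mouse, and the difference was -0.61 ± 0.19 with an unadjusted p of 0.00755 and a limma adjusted p of 0.243. Prkaa1, the alpha 1 subunit, had 0.548, 5.92, 0.975, 0 and 0 TPM in KPC mice 1 to 5, against 4.9, 8.31, 6.79, 7.2 and 5.81 TPM in sham mice 1 to 5. KPC mouse 2 lay within the sham range and the other KPC mice below it. It was listed at 0 in KPC mice 4 and 5, where an exact 0 can be a failed estimate, so no fold is given, and its limma adjusted p was 0.252. Mid1ip1, which activates acetyl-CoA carboxylase, differed by -0.39 ± 0.24 (limma adjusted p = 0.493). Acaca, the carboxylase of fatty acid synthesis, had 45.8, 256, 539.5, 195 and 251 TPM in KPC mice 1 to 5, against 409, 337, 445, 444 and 159.6 TPM in sham mice 1 to 5. The groups overlapped widely, with a limma adjusted p of 0.584. Mlycd, which breaks malonyl-CoA down, averaged 31.2 ± 2.84 TPM in KPC mice and 33.2 ± 2.79 TPM in sham mice, with a limma adjusted p of 0.857.

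Transcriptional regulators were negative for 12 of 16 genes tested, with a median of -0.10. Pparg, the master regulator of fat cells, had 58.3, 43.5, 51.3, 83.8 and 69.2 TPM in KPC mice 1 to 5, against 120.1, 80.3, 95.5, 81.1 and 79.7 TPM in sham mice 1 to 5. KPC mouse 4 lay within the sham range and the other KPC mice below it. The difference was -0.56 ± 0.18, with an unadjusted p of 0.00962 and a limma adjusted p of 0.255. Ppargc1a, the coactivator of mitochondrial genes, was low, with 0.234, 0.642, 0.77, 2.42 and 2.05 TPM in KPC mice 1 to 5, against 0.722, 0.911, 0.933, 2.45 and 0.957 TPM in sham mice 1 to 5, and the limma adjusted p was 0.884. Perm1, a regulator of muscle mitochondria, stood at 2.54 TPM in sham mouse 5, the mouse with the most muscle marker RNA. It stood at 0.103 to 0.146 TPM in KPC mice and 0.0814 to 0.902 TPM in the other sham mice (limma adjusted p = 0.442).

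Of the 8 lists, the other PPAR alpha target genes were the only one with mostly positive differences, 10 of the 14 tested, and their median was 0.12. Angptl4, a secreted inhibitor of lipoprotein lipase, had 239, 352, 254, 263 and 279.7 TPM in KPC mice 1 to 5, against 171, 316, 223, 285 and 202 TPM in sham mice 1 to 5. The groups overlapped, and the difference was 0.27 ± 0.17 (limma adjusted p = 0.496). Pdk4, the kinase that shuts off pyruvate dehydrogenase when fat is burned, averaged 39 ± 13 TPM in KPC mice and 34.5 ± 15.1 TPM in sham mice, with a difference of 0.26 ± 0.29 (limma adjusted p = 0.72). Vnn1, pantetheinase, differed by 0.83 ± 0.50, with 14.1 TPM in KPC mouse 1 and 2.75 to 4.62 TPM in the other KPC mice, against 1.26 to 7.36 TPM in sham mice (limma adjusted p = 0.485). Fgf21, Cyp4a10, Cyp4a14, Cyp4a12a and Fabp1 were too low to test.

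Ketone body genes split evenly, 3 negative and 3 positive. Oxct1, which starts the use of ketone bodies, had 97.3, 159, 123, 148 and 142 TPM in KPC mice 1 to 5, against 201, 182, 174, 180.1 and 189 TPM in sham mice 1 to 5. All KPC mice lay below all sham mice in TPM, though in normalized counts the groups overlapped. The difference was -0.45 ± 0.14, with an unadjusted p of 0.00636 and a limma adjusted p of 0.225. Acat1, a thiolase of ketone body use, differed by -0.17 ± 0.11 (limma adjusted p = 0.525). Of 15 mitochondrial genes with no part in oxidation of fatty acids, 14 were negative, with a median of -0.25, beside -0.26 for the peroxisomal members. Vdac1, the outer-membrane channel, averaged 119 ± 14.3 TPM in KPC mice and 151 ± 11.5 TPM in sham mice, with no overlap between groups in TPM or in normalized counts, a difference of -0.32 ± 0.11 and a limma adjusted p of 0.277. Idh3a, a subunit of isocitrate dehydrogenase, and Lonp1, a matrix protease, differed by -0.41 ± 0.19 and -0.29 ± 0.14, with limma adjusted p-values of 0.386 and 0.396.

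**Figure D4:**
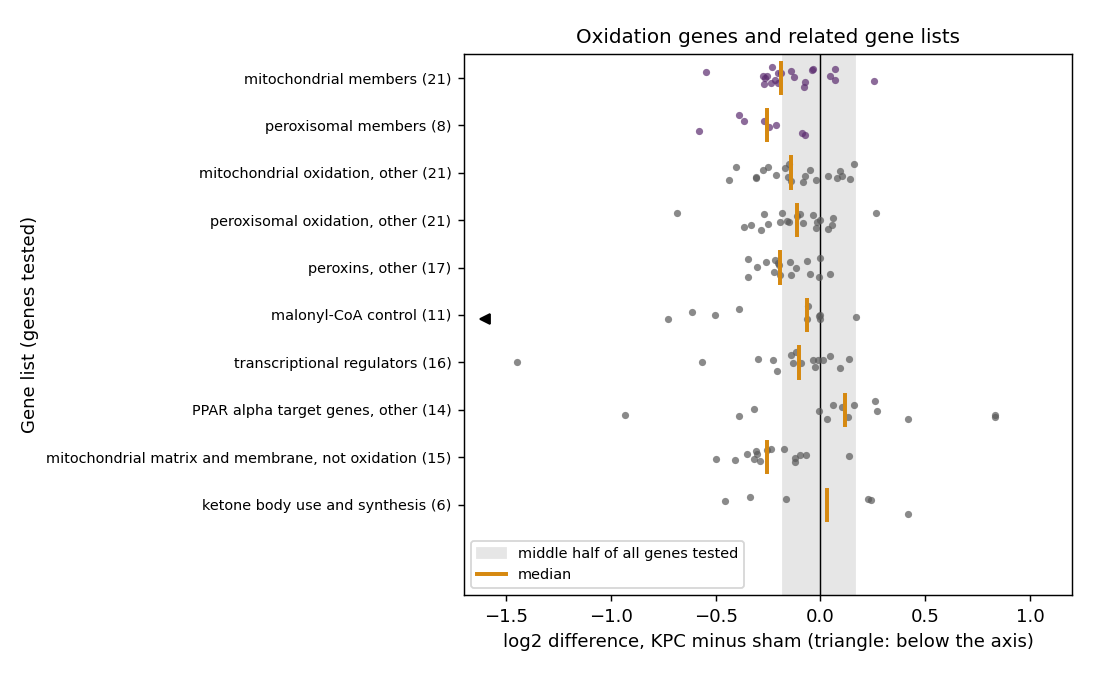
log2 differences, KPC minus sham, of the mitochondrial and peroxisomal members (purple) and of related gene lists (grey), 1 point per gene tested, with each list's median in orange and the range between the quartiles of all genes tested as a grey band. Medians lie below 0 for every list but PPAR alpha targets (0.12) and ketone body genes (0.03), and the triangle is Prkaa1, beyond the axis.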

How the data were processed

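Bulk RNA-seq of visceral fat from 5 KPC and 5 sham mice was deposited as 2 tables. The deposited normalized counts are a signal that the authors scaled by sample, and the deposited TPM values are per length. Per the submitters' processing notes, Salmon, DESeq2, DESeq and the mm10 build were used. For these tools, no version, annotation or strand setting is given in the sources used here. The labels number the samples of each group and do not say outright that each is its own animal. They are called mice here, and p-values measure the spread between these samples, which may in part be technical. Unscaled counts were not analysed here, so no count model was used and counting depth is unknown. The 14203 genes averaging 10 normalized counts or more entered a limma fit (limma 3.58.1, R 4.3.3) on log2(normalized count + 1), with a variance trend and Benjamini-Hochberg adjustment over all of them at 0.05. The same fit was tested on simulated data. A fold on this scale understates low genes. Levels are given in TPM.

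Members and gene lists were chosen with earlier results of these data known. Values of every mouse are given for the 6 members with the smallest unadjusted p in each direction, for members whose groups do not overlap and for 13 set genes. From other lists the 3 genes with the smallest p-values and 9 set genes were chosen by rule, and a few of them are not reported here. Hadhb was added beside its partner Hadha after its values were seen. Positions are from GENCODE vM21 (GRCm38), promoters from RefSeq (GRCm38.p6). Replicate numbers were not used to pair samples in the main fit, and the labels do not say whether they mark pairs.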

Additional observations from a re-analysis of the deposited data

Results flagged for a closer look

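In 8 of the 62 groups of 5 mice, counting each gene once per group, the extreme mouse stood apart, with a gap to its neighbour above 0.71 of the group's range. Chance flags about 1 in 20 groups, or 5%, and the genes share the same mice. KPC mouse 1 was that mouse in 4 groups. It was lowest for Acadm at 158 TPM, with the next KPC mouse at 212 TPM. It was lowest for Acadvl at 84 TPM, against 126 TPM in the next. Hadh stood at 179 TPM in KPC mouse 1 and at 246 TPM in the next KPC mouse. Abcd2 stood at 65.2 TPM there and at 123 TPM in the next. Without KPC mouse 1 no member was called, and Abcd2 was the only member whose groups did not overlap, as over all mice. The share of all genes without overlap was not counted in that setting.

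Sham mouse 5, the mouse with the highest sum of skeletal muscle markers, was lowest for Acadm at 222 TPM, below 256 TPM in the next sham mouse. It was lowest for Pex5 at 36.2 TPM, below 44.7 TPM, and highest for Acox3 at 24.5 TPM, above 20.9 TPM. Ehhadh stood at 39.2 TPM in sham mouse 1 and at 26.7 TPM in the next sham mouse. The part of muscle RNA in these values was not tested.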

How the results depend on the processing

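Under every alternative run, 0 members and 0 genes of the related lists were called. In these runs 1 to 7 members had an unadjusted limma p under 0.05, and the 7 came with TPM rescaled without mitochondrially encoded genes. The share of all genes at that level was 13.5% in the main fit, either direction, and was not counted in the alternative runs. The median difference stayed negative, from -0.28 to -0.12 for mitochondrial and -0.35 to -0.17 for peroxisomal members. Over all genes, 8 were called, and 2 with TPM and a pseudocount of 1, 4 with TPM rescaled without mitochondrially encoded genes, 3 without a variance trend, 200 with array weights, 4 with the replicate block and 4 with the first title number as a block. Leaving out 1 mouse gave 2 to 70.0, the highest without KPC mouse 1, and leaving out KPC mouse 1 and sham mouse 5, a choice made after seeing the data, gave 55. The cause was not tested. The rescaled TPM moved the median of all genes to -0.10.

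Of 712 values of single members, 685 kept their direction and side of the threshold and 27 reversed, all near 0 or with wide intervals. With TPM rescaled without mitochondrially encoded genes, Slc25a20 was at -0.018, Crat at -0.022 and Etfb at -0.045. Quantile normalization put Etfa at 0.011. Array weights put Acacb at 0.22, Ppara at 0.072 and Acox3 at 0.032. The title number as a block put Acacb at 0.032 and Ppara at 0.0091. Without KPC mouse 1 and sham mouse 5, Etfb was at -0.0090, Acacb at 0.11 and Acox3 at 0.061. With 1 mouse left out, Acacb ran from -0.52 to 0.28, Ppara from -0.24 to 0.10, Acox3 from -0.15 to 0.024, Acadl from -0.21 to 0.022, Echs1 from -0.15 to 0.0079, Cpt1a from -0.11 to 0.062, Eci1 from -0.18 to 0.58, Crat from -0.092 to 0.26, Slc25a20 from -0.010 to 0.16 and Etfb from -0.0005 to 0.095. The adjusted p of Abcd2 ran from 0.111 to 0.466.

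Same-numbered mice of both groups had correlations of 0.005 to 0.191, and 2 of 5 KPC mice correlated best with their own number. The pairing was not used in the main fit, though these correlations cannot show that the samples were unpaired. Low members such as Eci1, Cpt1b and Ppara have wide intervals, and without counts their counting error is unknown.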

Other observations

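Related genes that followed the mitochondrial members mouse by mouse were sought among all genes tested. After subtraction of group means, the genes closest to the mean of the standardized mitochondrial members over the 10 mice were Eral1, Arxes2, Sepsecs, Coq9 and Pigo, with Pearson correlations of 0.983, 0.962, 0.961, 0.941 and 0.936. Eral1 helps assemble the small mitochondrial ribosomal subunit, Coq9 acts in coenzyme Q synthesis, Sepsecs makes selenocysteine on its tRNA and Pigo acts in the synthesis of GPI anchors. These values describe mice that share a library for every gene, and the genes were picked as the highest of 14203. Eral1 was at 12.5, 16, 15, 15.3 and 13.9 TPM in KPC mice 1 to 5, against 15.8, 16.6, 15.6, 15.3 and 15 TPM in sham mice 1 to 5. KPC mouse 1 was the lowest of the 10 mice for Eral1 and for 19 of the 31 oxidation genes.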
